A study of Dipsacus asperoides with 9 samples.

Results

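The MYB and RADIALIS-like transcription factors of Dipsacus asperoides roots were taken as the unigenes whose best match in the NR protein database has MYB or RADIALIS in its name, in any letter case. Of the 65535 unigenes of the table, 101 had such a name. The rule drops matches to Beta, Chenopodium, Spinacia, Quercus suber and Hordeum, which held 14 of them, and it asks for 1 FPKM or more in 3 or more of the 9 libraries. It left 75 members of the 87 matches to other species, because 12 lay under the level filter. The paper reports more expressed unigenes than the table holds, so further members may be missing.

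D. asperoides is a perennial medicinal herb whose roots accumulate the triterpenoid saponin asperosaponin VI. RNA-Seq was performed on wild type roots of 3 developmental stages, with 3 biological replicates each. L1 and L2 roots came from seedlings with one leaf and with a pair of leaves, and M7 roots came from plants grown for 7 months. The comparisons ask which genes change in level as the root develops, between the seedling stages and between either seedling stage and M7. Stage and plant age go together in this design and cannot be told apart.

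MYB proteins bind DNA through repeats of a helix-turn-helix domain, and most plant members carry a pair of these repeats, the R2R3 type. They control phenylpropanoid and flavonoid synthesis, cell walls and suberin, cell identity and stress responses. GARP proteins carry a related single domain. RADIALIS of snapdragon is a short protein with 1 MYB repeat that opposes DIVARICATA, another MYB protein, in the petals, and RADIALIS-like genes are its relatives. The names used here come from the best match in another species, so a number in a name does not show that a unigene is the counterpart of the Arabidopsis gene of that number.

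Values are FPKM, a read count scaled by transcript length and by the mapped reads of the library, and library values are listed in the order of the replicates. Fold changes and their standard errors are on log2(FPKM + 1), which understates the change of unigenes at low levels. A unigene passed when its limma p, adjusted by Benjamini-Hochberg over the 34925 tested unigenes, was under 0.05. A unigene that passed was called a DEG where its mean exceeded 30 FPKM in the highest stage and its log2 fold change exceeded 2 in size. The paper gives the approximate number of clean reads per sample. No read counts of unigenes were used, so the reads behind each value are unknown, and an exact 0 is given as listed at 0.

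The M7 libraries listed fewer unigenes than the seedling libraries. At 1 FPKM or more there were 26048 to 28468 unigenes in L1, 32849 to 34173 in L2, and 13430, 18794 and 17517 in M7. Cytosolic ribosomal proteins, which every cell uses, were listed at 0 for 289 to 299 of 376 unigenes in M7, against 119 to 178 in the seedling libraries, while their summed level was 23864 to 27619 FPKM in M7 and 15264 to 20778 FPKM in seedlings. Of the marker lists, 28 green-tissue unigenes summed to 158 to 195 FPKM in L1, 52.9 to 58.8 FPKM in L2 and 1322 to 3218 FPKM in M7. A chlorophyll A-B binding protein unigene (DN22710_c0_g1) held 92% of the M7 sum, whereas 9 of 17 tested green-tissue unigenes were lower and 2 higher in M7 against L1. In M7 against L2, 3 were lower and 7 higher. The 33 root unigenes summed to 170 to 276 FPKM in L1, 399 to 419 FPKM in L2 and 241 to 381 FPKM in M7. Of the 28 tested root unigenes, 15 were lower and 6 higher in M7 against L1, with 14 lower and 6 higher in M7 against L2. At 1 FPKM or more there were 23 to 28 root unigenes in the seedling libraries and 13 to 15 in M7. The part of these differences in the results below was not tested. In bulk roots, fewer cells of a type and less RNA per cell cannot be told apart.

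Most members had their highest level in seedlings. The highest stage mean lay in L1 for 38 members, in L2 for 31 and in M7 for 6, which is 50.7%, 41.3% and 8% of the members, beside 32.8%, 49.7% and 17.5% of all tested unigenes. The summed level of the members was 1785, 1862 and 2701 FPKM in L1, 1009, 1024 and 1057 FPKM in L2, and 181, 387 and 437 FPKM in M7. The 3 stages did not overlap in this sum. RADIALIS-like 3 alone held 31.6% of the L1 sum, and without it the sums averaged 1447 ± 78.8 FPKM in L1, 955 ± 16.3 FPKM in L2 and 333 ± 134 FPKM in M7 (SD, n = 3 each). At 1 FPKM or more there were 64 to 68 members in the seedling libraries and 23, 37 and 35 in the M7 libraries, and 19 members reached this level in every library.

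In M7 against L1, 49 members were lower and 4 were higher, which is 65.3% and 5.33% of the members, beside 35.1% and 9.37% of all tested unigenes. In M7 against L2, 51 were lower and 4 were higher, or 68% and 5.33%, beside 52.6% and 7.71%. Under quantile normalization the split in M7 against L1 was 34 lower and 6 higher, beside 24.9% and 22% of all tested unigenes. The same scaling gave 28 lower and 13 higher in M7 against L2, beside 25.1% and 21.7%. In L2 against L1, without this scaling, 19 members were lower and 9 were higher, or 25.3% and 12%, beside 14.8% and 26.1%. Without the dropped match species, the shares of tested unigenes that were lower were 32.3% in M7 against L1, 50.2% in M7 against L2 and 10.7% in L2 against L1. Both M7 comparisons use the same M7 libraries, and both comparisons with L1 use the same L1 libraries, so the counts are not independent. The counts hold 7 members that reached the level filter through the 3 libraries of 1 stage alone. That stage had to be high in them, and their differences from it are given as values with no test. Without these 7, a step chosen after the data were seen, 46 members were lower and 2 higher in M7 against L1, or 67.6% and 2.94% of 68, beside 36.8% and 11.5% of the tested unigenes left after the same step. In M7 against L2 the counts were 47 and 2, or 69.1% and 2.94%, beside 45.3% and 9.22%. In L2 against L1 they were 16 and 7, or 23.5% and 10.3%, beside 9.76% and 11.6%.

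**Figure D1:**
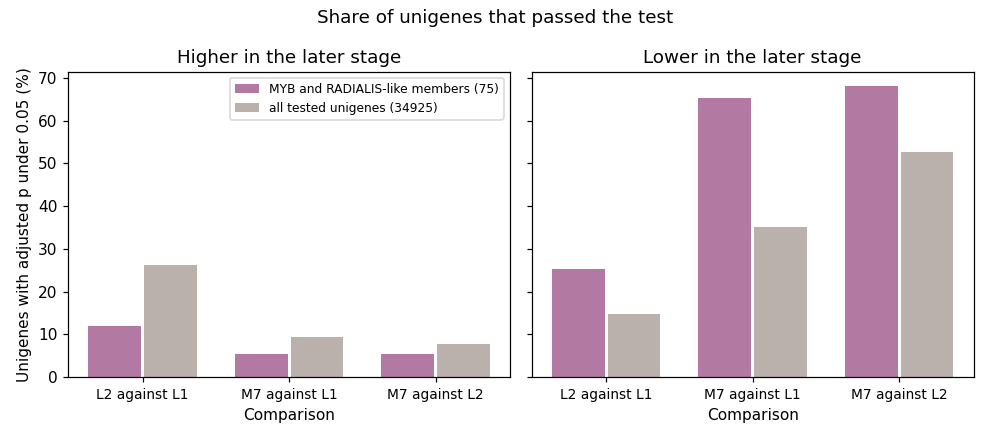
Share of unigenes, in percent, that passed an adjusted p of 0.05 in each comparison, for the 75 members (purple bars) and for all 34925 tested unigenes (grey bars), with those higher in the later stage on the left and those lower on the right. The share of members that were lower is above that of all unigenes in each comparison, with 65.3% against 35.1% for M7 against L1, and the share that were higher is below it.

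The median log2 fold change of the members was -1.57 in M7 against L1, -1.37 in M7 against L2 and -0.14 in L2 against L1, beside medians of -0.48, -1.07 and 0.32 over all tested unigenes. A stage was listed at 0 throughout for 7 members in each M7 comparison and for 2 in L2 against L1, and the medians of the other members were -1.56, -1.41 and -0.16. After median ratio rescaling the medians of the members were -1.38, -0.95 and -0.37, beside -0.24, -0.71 and 0.15 for all tested unigenes. After quantile normalization they were -0.68, -0.09 and -0.38, beside 0.17, 0.05 and -0.04.

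Libraries that did not overlap between the stages were also counted. In M7 against L1, 50 members (66.7%) had all M7 values below all L1 values and 3 (4%) had them above, beside 38.6% and 10.4% of all tested unigenes. In M7 against L2 these were 57 and 4 members (76% and 5.33%), beside 58.5% and 9.64%. In L2 against L1 they were 28 and 17 members (37.3% and 22.7%), beside 21.8% and 39.1%. These counts hold the 7 members that reached the level filter through 1 stage alone, whose separation from that stage was set by the rule. Among the 3 above in M7 against L1 are DN20092_c0_g4 and DN25865_c1_g1, which reached it through M7 alone. The shares of all tested unigenes hold such unigenes too.

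The commonest course over the 3 stages was a fall at M7 alone. It was seen in 25 members, or 33.3%, which passed as lower in M7 against both seedling stages without passing between these stages, beside 16.5% of all tested unigenes. A further 12 members, or 16%, were lower at each step, beside 6.31%. Among these, DN32748_c0_g1 and DN25865_c1_g2 reached the level filter through L1 alone, so they had to be high in L1. The 6.31% holds such unigenes too. Another 12 members passed in no comparison, beside 25.6% of all tested unigenes. The 9 members that were higher in L2 against L1 were all lower in M7 against L2, which also held for 90.5% of all tested unigenes that were higher in L2 against L1. These 2 comparisons share the L2 libraries. Among the 9, DN109761_c0_g1 and DN21192_c0_g1 reached the level filter through L2 alone, so they had to be high in L2, and 7 are left without them. The 90.5% was not computed without such unigenes.

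Of the 15 members with a highest stage mean over 30 FPKM, 11 were DEGs in at least 1 comparison, beside 46.2% of all tested unigenes over that level, and 3 of these were DEGs in all 3. There were 10 member DEGs in M7 against L1, with 8 in M7 against L2, all lower in M7, where DEGs lower in M7 made up 3.73% and 4.14% of all tested unigenes and those higher 1.41% and 1.01%. In L2 against L1 there were 5 lower and 1 higher, beside 0.372% and 0.868%. Over both directions the members held 13.3%, 10.7% and 8% DEGs in these 3 comparisons, beside 5.14%, 5.15% and 1.24%.

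RADIALIS-like unigenes went different ways. The rule kept 5 of them, and 2 were DEGs that fell at each stage, while 3 at low levels had their highest mean in M7. RADIALIS-like 3 (DN24929_c1_g1) had the highest L1 mean of all members. It stood at 393.45, 448.91 and 1163.51 FPKM in L1, 66.2, 75.29 and 83.32 FPKM in L2, and 0, 5.1 and 3.08 FPKM in M7. The 3 stages did not overlap, and L1 replicate 3 held more than the other L1 libraries together. Its fitted log2 change was -2.97 ± 0.67 in L2 against L1 (SE, adjusted p = 0.00727), -7.66 ± 0.67 in M7 against L1 (adjusted p = 4.53e-05) and -4.69 ± 0.67 in M7 against L2 (adjusted p = 4.22e-04). Without L1 replicate 3 the value in L2 against L1 was -2.48 (adjusted p = 0.0294). A pseudocount of 0.1 gave -2.98 with an adjusted p of 0.132, which ends that call.

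The unigene named RADIALIS-like, partial (DN24929_c0_g1) belongs to the same assembly component. It had 117.25, 100.4 and 114.4 FPKM in L1, 13.66, 12.39 and 17.82 FPKM in L2, and 0, 0.5 and 3.01 FPKM in M7. Its L1 libraries lay close together, unlike those of RADIALIS-like 3, and again no stage overlapped another. The log2 fold changes were -2.85 ± 0.46 (adjusted p = 0.00111) in L2 against L1, -5.94 ± 0.46 (adjusted p = 2.54e-05) in M7 against L1 and -3.09 ± 0.46 (adjusted p = 5.34e-04) in M7 against L2. With a pseudocount of 0.1 the call in L2 against L1 was lost (adjusted p = 0.0663). Unigenes of 1 component can be copies, alleles or pieces of a gene that share reads, so the division of reads between these unigenes is uncertain.

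RADIALIS-like 4 (DN23516_c0_g1) was lowest in L2. Its values were 4.55, 2.71 and 2.05 FPKM in L1, 0.67, 0.68 and 0.65 FPKM in L2, and 3.84, 5.35 and 5.14 FPKM in M7. The L2 libraries lay below all others, while L1 and M7 overlapped. The fit gave a log2 change of -1.25 ± 0.25 in L2 against L1 (adjusted p = 0.00402), 1.78 ± 0.25 in M7 against L2 (adjusted p = 4.11e-04) and 0.53 ± 0.25 in M7 against L1 (adjusted p = 0.134). It was the only member that passed as lower in L2 and then as higher in M7 against L2. This course, with no pass in M7 against L1, was that of 0.387% of all tested unigenes.

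Both members named RADIALIS-like 1 share a component and were low in seedlings. DN20092_c0_g4 was listed at 0 in all 6 seedling libraries and had 1.75, 1.42 and 11.62 FPKM in M7, so that it reached the level filter through M7 alone. Its difference between M7 and seedlings is therefore given with no test. DN20092_c0_g1 had 0.68, 0 and 0 FPKM in L1, 0.92, 1.3 and 1.07 FPKM in L2, and 4.45, 0.47 and 9.4 FPKM in M7. M7 replicate 2 lay within the range of L1. The log2 fold change in M7 against L1 was 1.88 ± 0.63 (adjusted p = 0.0394), and it did not pass without any 1 of the L1 or L2 libraries or without M7 replicate 1 or 3, where the adjusted p was 0.053 to 0.111. Without M7 replicate 3 it was 1.25. M7 replicate 3 was the highest library for both unigenes.

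**Figure D2:**
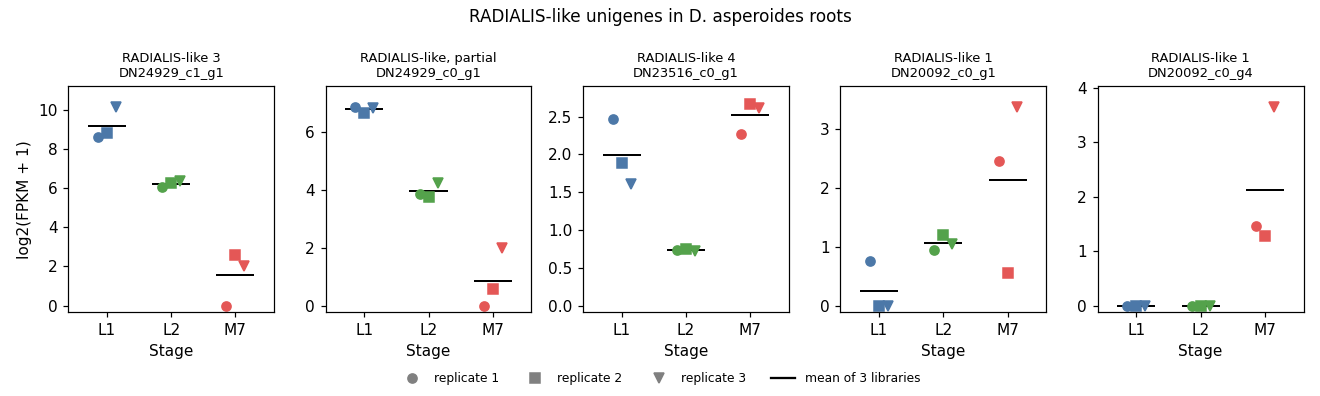
Levels of the 5 RADIALIS-like members as log2(FPKM + 1) in each library, by stage, with 1 marker shape per replicate and a bar at the mean of the 3 libraries (each panel has its own axis). The pair on component DN24929 steps down at each stage, RADIALIS-like 4 is lowest in L2, and both RADIALIS-like 1 unigenes have their highest values in M7 replicate 3.

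The repressor-type names form the next group. In snapdragon and Arabidopsis, MYB308 and MYB4 repress genes of phenylpropanoid synthesis. Of the 8 members with such names, 7 were lower in M7 against L1, 4 in M7 against L2 and 4 in L2 against L1, and 1 was higher in L2 against L1. Over all tested unigenes, 35.1%, 52.6% and 14.8% were lower in these comparisons, and 26.1% were higher in L2 against L1. The 4 of 8 in M7 against L2 lies near the 52.6% of all tested unigenes. The repressor MYB6-like (DN3521_c0_g1) was a DEG in all 3 comparisons. It had 93.43, 101.55 and 167.54 FPKM in L1, 24.38, 24.99 and 25.5 FPKM in L2, and 2.04, 6.22 and 8.67 FPKM in M7. The stages did not overlap. The fitted log2 change was -2.18 ± 0.43 in L2 against L1 (adjusted p = 0.00326), -4.30 ± 0.43 in M7 against L1 (adjusted p = 8.18e-05) and -2.12 ± 0.43 in M7 against L2 (adjusted p = 0.0028).

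Myb-related protein 308-like (DN3530_c0_g1) was high in both seedling stages and low in M7. It had 143.5, 132.62 and 45.19 FPKM in L1, 80.61, 90.68 and 83.98 FPKM in L2, and 0.56, 6.95 and 1.96 FPKM in M7. The seedling stages overlapped, since L1 replicate 3 lay below all L2 libraries, and M7 lay below both. On the log2 scale it changed by -4.86 ± 0.63 in M7 against L1 (adjusted p = 3.36e-04), -4.69 ± 0.63 in M7 against L2 (adjusted p = 2.79e-04) and -0.16 ± 0.63 in L2 against L1 (adjusted p = 0.865).

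The repressor MYB5, partial (DN3185_c0_g1) was high in L1 only. Its values were 40.68, 48.12 and 75.21 FPKM in L1, 8.74, 6.52 and 9.04 FPKM in L2, and 4.37, 7.3 and 18.4 FPKM in M7. L1 lay above both later stages, and L2 and M7 overlapped. The log2 change was -2.58 ± 0.46 in L2 against L1 (adjusted p = 0.00199), -2.50 ± 0.46 in M7 against L1 (adjusted p = 0.00241) and 0.08 ± 0.46 in M7 against L2 (adjusted p = 0.923).

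MYB4-like (DN12483_c0_g2) had 35.06, 39.8 and 33.57 FPKM in L1, 21.54, 18.76 and 19.14 FPKM in L2, and 0.05, 4.05 and 0.83 FPKM in M7. The stages did not overlap, but only the M7 comparisons passed, with -4.12 ± 0.50 against L1 (adjusted p = 2.29e-04) and -3.28 ± 0.50 against L2 (adjusted p = 5.73e-04). Of the other 4 repressor-type members, the repressor MYB4-like isoform X2 (DN17987_c0_g1) was the one that was higher in L2 against L1, with 10.66, 10.9 and 16.04 FPKM in L2 against 3.72, 5.25 and 4.68 FPKM in L1. Its adjusted p of 0.0419 went past 0.05 when any 1 seedling library or M7 replicate 2 was left out. A second 308-like unigene, DN25865_c0_g1, passed in no comparison.

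MYB13, MYB14 and MYB15 names come next. In grapevine, MYB14 and MYB15 activate stilbene synthase genes, and in Arabidopsis MYB15 takes part in cold and defence responses. Of 5 members, 4 were lower in M7 against L1, 2 in M7 against L2 and 2 in L2 against L1, and 1 was higher in L2 against L1. Over all tested unigenes, 35.1%, 52.6% and 14.8% were lower in these comparisons, and 26.1% were higher in L2 against L1. The 2 of 5 in M7 against L2 lies under the 52.6% of all tested unigenes. MYB14-like (DN12523_c0_g2) had 95.63, 107.39 and 90.44 FPKM in L1, 19.65, 23.24 and 20.35 FPKM in L2, and 2.73, 19.58 and 14.61 FPKM in M7. L1 lay far above the rest, and M7 replicate 1 lay well under the other M7 libraries. On the log2 scale the difference was -2.16 ± 0.56 in L2 against L1 (adjusted p = 0.0143), -3.21 ± 0.56 in M7 against L1 (adjusted p = 0.00181) and -1.05 ± 0.56 in M7 against L2 (adjusted p = 0.139). Without L2 replicate 1 the call in L2 against L1 was lost (-2.12, adjusted p = 0.0523).

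The second MYB14-like unigene, DN12955_c0_g1, peaked in L2. It had 6.38, 7.1 and 7.35 FPKM in L1, 15.66, 15.57 and 18.97 FPKM in L2, and 0.15, 1.53 and 1.71 FPKM in M7, with no overlap between stages. Its fitted log2 change was 1.16 ± 0.33 in L2 against L1 (adjusted p = 0.0223), which did not pass without L1 replicate 1 or 2 or any 1 of the L2 libraries. It was -3.15 ± 0.33 in M7 against L2 (adjusted p = 6.50e-05). MYB13-like (DN12483_c0_g1) was high in both seedling stages, with 39.64, 40.06 and 49.11 FPKM in L1, 36.37, 35.84 and 31.77 FPKM in L2, and 6.01, 4.43 and 4.63 FPKM in M7. It fell by 2.87 in M7 against L1 (SE 0.20, adjusted p = 1.43e-05) and by 2.57 in M7 against L2 (SE 0.20, adjusted p = 9.30e-06) on the log2 scale.

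In Arabidopsis, MYB108 acts in jasmonate-dependent stamen maturation, and its relatives include MYB2 and MYB62. All 5 members of this group were lower in M7 against L2, 3 were lower in M7 against L1, and none passed in L2 against L1. Of all tested unigenes, 52.6% were lower in M7 against L2 and 35.1% in M7 against L1. MYB108-like protein 1 (DN3027_c0_g1) had 159.27, 149.6 and 63.75 FPKM in L1, 55.55, 58.92 and 56.03 FPKM in L2, and 0.53, 1.47 and 1 FPKM in M7. The stages did not overlap, and L1 replicate 3 lay near the L2 libraries. The fit gave a log2 change of -5.89 ± 0.36 in M7 against L1 (adjusted p = 9.40e-06), -4.88 ± 0.36 in M7 against L2 (adjusted p = 8.24e-06) and -1.01 ± 0.36 in L2 against L1 (adjusted p = 0.0577). A MYB108-like unigene of another component, DN11690_c1_g1, averaged 28.5 ± 10.4 FPKM in L1, 23.3 ± 0.931 FPKM in L2 and 5.09 ± 4.1 FPKM in M7 (SD, n = 3 each).

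MYB1R1 of potato is a single-repeat MYB protein linked to drought tolerance. MYB1R1-like (DN2492_c0_g2) had 85.64, 94.81 and 123.13 FPKM in L1, 43.48, 44.37 and 43.96 FPKM in L2, and 14.75, 25.83 and 29.07 FPKM in M7, with no overlap between stages. The fitted log2 change was -1.17 ± 0.28 in L2 against L1 (adjusted p = 0.00879), -2.11 ± 0.28 in M7 against L1 (adjusted p = 3.52e-04) and -0.95 ± 0.28 in M7 against L2 (adjusted p = 0.017). The last call was lost after median ratio rescaling (-0.08, adjusted p = 0.813) and after quantile normalization (-0.40, adjusted p = 0.113). The other single-repeat member, DN37527_c0_g1, passed as lower in each comparison and was listed at 0 in all M7 libraries.

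**Figure D3:**
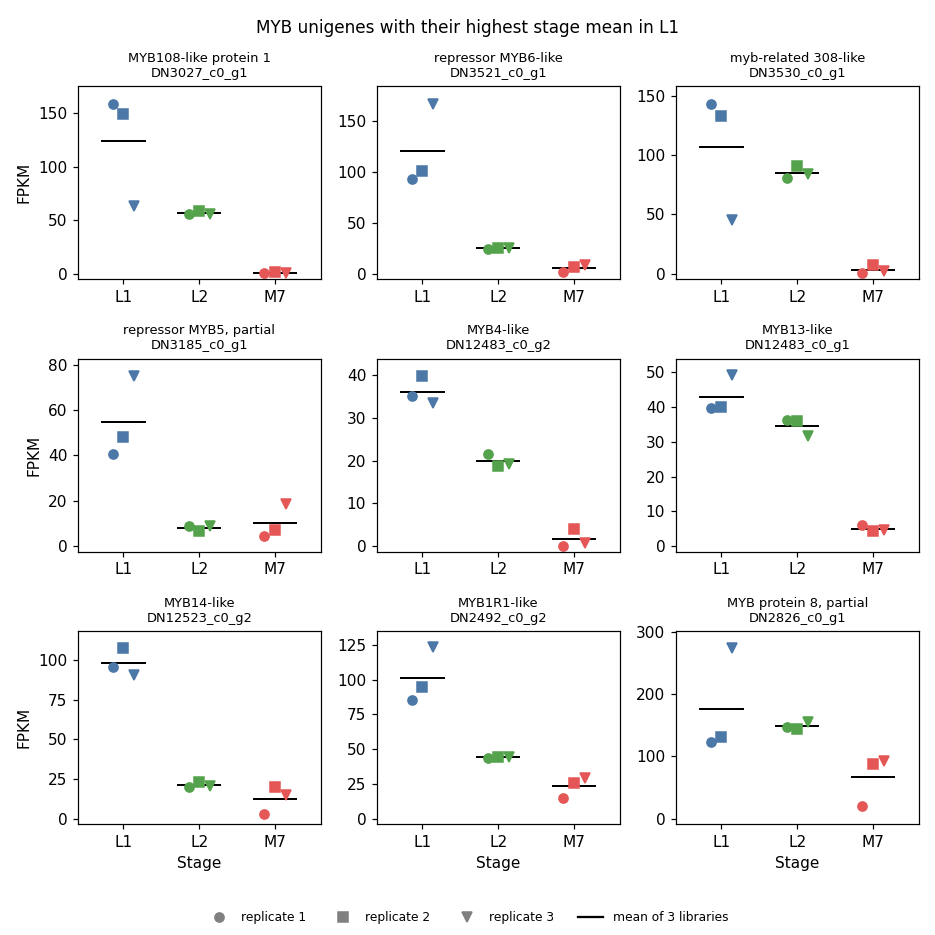
FPKM of 9 members in each library, by stage, with 1 marker shape per replicate and a bar at the mean of the 3 libraries (each panel has its own axis). Each member has its highest mean in L1. The M7 libraries lie below all L1 libraries in every panel, and L1 replicate 3 is the highest L1 library for MYB6-like, MYB5, MYB13-like, MYB1R1-like and MYB protein 8 and the lowest for the other 4.

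L1 replicate 3 stood apart from the other L1 libraries in both directions. It was over 1.5 times both others for 16 members and under both by the same factor for 12. Over all tested unigenes these shares were 14% and 28.4%. It was the highest L1 library for 33 members, or 44%, beside 27.4% of all tested unigenes. Its root markers summed to 170 FPKM, against 250 and 276 FPKM in the other L1 libraries. Without this library there were 4 member DEGs in L2 against L1 instead of 6, with MYB6-like and the EFM unigene DN13486_c0_g2 lost, and 9 instead of 10 in M7 against L1, with MYB1R1-like lost. M7 replicate 1 was the lowest M7 library for 44 members, or 58.7%, beside 39.5% of all tested unigenes, and its median ratio factor was 0.4034, against 0.9612 and 0.879 for the other M7 libraries. Without it, 46 members were lower in M7 against L1, with 48 in M7 against L2.

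GARP-type members included the steepest falls in M7 against L1 among members under 30 FPKM. EFM of Arabidopsis delays flowering, PHL proteins are relatives of PHR1, the regulator of the phosphate starvation response, and MYBC1 is linked to freezing tolerance in Arabidopsis. Of 9 members, 7 were lower in M7 against L1, with 8 in M7 against L2, and 1 was higher in each of these comparisons. Over all tested unigenes, 35.1% and 52.6% were lower in these comparisons, and 9.37% and 7.71% were higher. In L2 against L1, 2 members were higher and 1 was lower, beside 26.1% and 14.8% of all tested unigenes. PHL13 (DN3552_c0_g2) had 24.13, 23.57 and 36.59 FPKM in L1, 17.33, 18.14 and 23.72 FPKM in L2, and 0, 0.07 and 0.25 FPKM in M7. The seedling stages overlapped and M7 was at 0.25 FPKM or less in every library. On the log2 scale it changed by -4.69 ± 0.24 in M7 against L1 (adjusted p = 5.02e-06) and -4.22 ± 0.24 in M7 against L2 (adjusted p = 2.02e-06).

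PHL8-like (DN13322_c1_g1) had 15.88, 17.63 and 35.39 FPKM in L1, 24.24, 25.36 and 25.73 FPKM in L2, and 0.09, 1.7 and 1.78 FPKM in M7. It fell by 3.48 in M7 against L1 (SE 0.43, adjusted p = 2.53e-04) and by 3.70 in M7 against L2 (SE 0.43, adjusted p = 1.17e-04) on the log2 scale. The other PHL8-like unigene of that component, DN13322_c0_g1, differed in that it was already lower in L2. It had 8.59, 9.84 and 25.73 FPKM in L1, 2.36, 3.68 and 3.7 FPKM in L2, and 0, 0.18 and 0.23 FPKM in M7, with -1.74 ± 0.39 in L2 against L1 (adjusted p = 0.00644) and -3.63 ± 0.39 in M7 against L1 (adjusted p = 1.19e-04). PHL5-like (DN3552_c0_g3) averaged 12.4 ± 5.77 FPKM in L1 and 8.18 ± 0.433 FPKM in L2 (SD, n = 3 each) and had 0, 0.49 and 0.29 FPKM in M7.

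Both EFM members peaked in L2. DN13486_c0_g2 had 7.05, 7.75 and 6.2 FPKM in L1, 31.14, 30.7 and 33.19 FPKM in L2, and 0.57, 6.45 and 3.56 FPKM in M7. The L2 libraries lay above all others, and M7 overlapped L1. The log2 change was 2.03 ± 0.50 in L2 against L1 (adjusted p = 0.0105), the only member DEG that was higher in a later stage before rescaling, and -3.12 ± 0.50 in M7 against L2 (adjusted p = 7.70e-04). With a pseudocount of 0.1 the value in L2 against L1 was 2.17 (adjusted p = 0.054). It was also no DEG there with a pseudocount of 5 (1.61), after median ratio rescaling (1.80) and after quantile normalization (2.01), although the adjusted p stayed under 0.05. The second EFM unigene, DN26656_c0_g3, had 5.06, 3.48 and 1.72 FPKM in L1, 12.04, 12.75 and 12.79 FPKM in L2, and 0.55, 1.58 and 1.13 FPKM in M7. It gave 1.69 ± 0.32 in L2 against L1 (adjusted p = 0.00294) and -2.73 ± 0.32 in M7 against L2 (adjusted p = 1.38e-04). Its M7 against L1 value of -1.04 (adjusted p = 0.0302) became 0.07 (adjusted p = 0.825) under quantile normalization and lost its call without any 1 of 7 libraries, which were all but L1 replicate 3 and M7 replicate 2.

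MYBC1-like (DN3408_c0_g1) was the only member with a highest stage mean over 30 FPKM in M7. It had 21.64, 20.36 and 17.91 FPKM in L1, 14.58, 15.89 and 17.16 FPKM in L2, and 49.67, 24.94 and 40.1 FPKM in M7. All M7 values lay above all seedling values. On the log2 scale the difference was 1.17 ± 0.26 in M7 against L2 (adjusted p = 0.00521) and 0.85 ± 0.26 in M7 against L1 (adjusted p = 0.0293). Without M7 replicate 3 or any 1 L1 library the call against L1 was lost (adjusted p = 0.0564 to 0.0819), as it was in the fit of these stages alone (adjusted p = 0.0702). After median ratio rescaling MYBC1-like was a DEG higher in M7 against L2 (2.03, adjusted p = 0.00648).

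Myb-related protein 305 (DN109761_c0_g1) was measured mainly in L2. In snapdragon, MYB305 activates phenylpropanoid genes in flowers. It had 0, 0.38 and 0.15 FPKM in L1, 12.28, 9.51 and 11.84 FPKM in L2, and 0, 0.05 and 0 FPKM in M7. It was at 0.38 FPKM or less in every library outside L2. Because it reached the level filter through L2 alone, no test of L2 against the other stages is given.

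The unigene named Myb-related protein like (DN14979_c0_g1) also peaked in L2, with 0.86, 0.88 and 1.75 FPKM in L1, 5.49, 6.97 and 6.43 FPKM in L2, and 0.15, 0.68 and 0.38 FPKM in M7. It gave 1.77 ± 0.24 in L2 against L1 (adjusted p = 3.60e-04) and -2.39 ± 0.24 in M7 against L2 (adjusted p = 4.73e-05). A MYB/SANT family unigene (DN15402_c0_g1) had 2.48, 2.56 and 2.74 FPKM in L1, 7.17, 8.53 and 8.27 FPKM in L2, and 0.02, 0.61 and 0 FPKM in M7. No stage overlapped another in either unigene. It gave 1.32 ± 0.23 in L2 against L1 (adjusted p = 0.00172, but 0.125 with a pseudocount of 0.1), -1.61 ± 0.23 in M7 against L1 (adjusted p = 6.05e-04, but 0.168 under quantile normalization) and -2.93 ± 0.23 in M7 against L2 (adjusted p = 1.14e-05). MYB102-like (DN24060_c0_g1) was also higher in L2 against L1 (0.76 ± 0.22, adjusted p = 0.025), with a highest stage mean of 2.94 FPKM. This call was lost with a pseudocount of 0.1, after median ratio rescaling, after quantile normalization and without L1 replicate 3, L2 replicate 2 or L2 replicate 3. The last of the members higher in L2 against L1 was a myb/SANT-like unigene (DN21192_c0_g1), which reached 1 FPKM in L2 alone, at 1.31, 1.11 and 1.28 FPKM.

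MYB11-like (DN25865_c1_g1) was measured in M7 alone. With MYB12 and MYB111, MYB11 of Arabidopsis activates flavonol synthesis. It was listed at 0 in all 6 seedling libraries and had 1.95, 1.48 and 9.04 FPKM in M7, so that it passed the level filter through M7 and its difference from seedlings is given with no test. As for both RADIALIS-like 1 unigenes, M7 replicate 3 was its highest library. The other members of the flavonoid group were 2 MYB114 unigenes of 1 component that had their highest mean in L1, with 19.3 ± 2.3 FPKM for DN13181_c0_g2 and 4.21 ± 0.137 FPKM for DN13181_c0_g1 (SD, n = 3 each). Both were lower in M7 against L1, beside 35.1% of all tested unigenes.

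**Figure D4:**
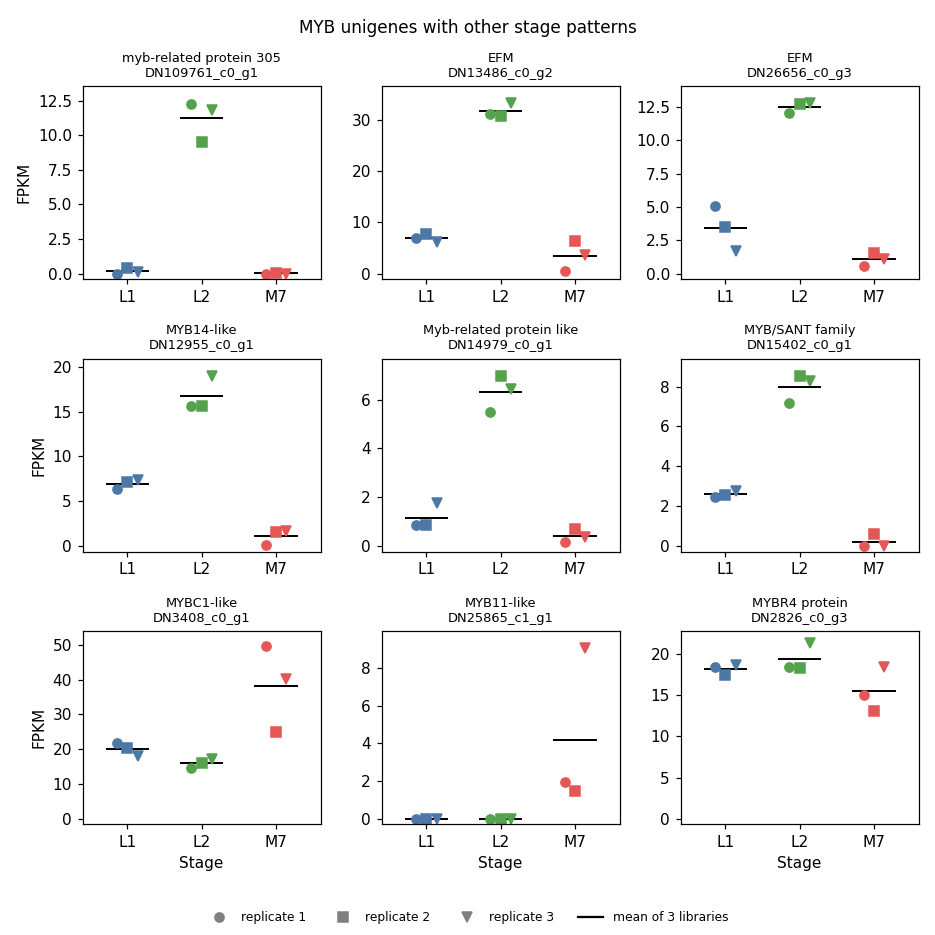
FPKM of 9 members in each library, by stage, with 1 marker shape per replicate and a bar at the mean of the 3 libraries (each panel has its own axis). The 6 members of the upper rows peak in L2, with myb-related protein 305 at 0.38 FPKM or less elsewhere. MYBC1-like and MYB11-like are highest in M7, and MYBR4 lies between 13.1 and 21.36 FPKM in every library.

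MYB30-like (DN13181_c1_g1) reached 1 FPKM in the L1 libraries alone. MYB30 of Arabidopsis acts in the hypersensitive response to pathogens. It had 5.09, 6.31 and 6.96 FPKM in L1, 0, 0 and 0.08 FPKM in L2, and 0.4, 0.82 and 0 FPKM in M7. It passed the level filter through L1, so the differences from L1 are given with no test, and M7 and L2 overlapped. A MYB16 unigene (DN32748_c0_g1) had a like course, with 4.8, 5.18 and 5.56 FPKM in L1, 0.41, 0.77 and 0.76 FPKM in L2, and was listed at 0 in all M7 libraries. MYB16 of Arabidopsis, a MIXTA relative, acts in cuticle formation. The other MYB16 unigene, DN20963_c0_g1, did not follow it and averaged 2.46 ± 0.525 FPKM in L1, 3.06 ± 0.784 FPKM in L2 and 0.443 ± 0.193 FPKM in M7 (SD, n = 3 each).

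Names of the suberin and wall groups were at moderate levels in seedlings and low in M7. MYB39 and MYB93 of Arabidopsis act in the root endodermis, and MYB46 and MYB63 activate secondary wall and lignin genes. All 3 suberin-group members were lower in M7 against both seedling stages. MYB93-like (DN117039_c0_g1) had 6.08, 6.38 and 5.38 FPKM in L1, 7.09, 6.36 and 6.21 FPKM in L2, and 0.5, 0.22 and 0.22 FPKM in M7. MYB39 (DN24060_c1_g2) had 3.78, 4.35 and 3.26 FPKM in L1, 3.81, 4.03 and 4 FPKM in L2, and 0, 0.09 and 0 FPKM in M7. Neither differed between L1 and L2 past the threshold. In the wall group, 3 of 4 members were lower in M7 against each seedling stage, beside the same 35.1% and 52.6% of all tested unigenes. The exception was MYB86 (DN3521_c0_g3), which had 11.32, 12.11 and 10.98 FPKM in L1, 13.88, 13.43 and 14.14 FPKM in L2, and 1.48, 22.52 and 13.28 FPKM in M7. Its M7 libraries spanned both seedling stages.

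MYB3R-1 proteins of Arabidopsis control genes of cell division. Both MYB3R-1-like members were lower in M7, and neither passed between the seedling stages. DN12978_c0_g1 had 12.5, 11.5 and 3.42 FPKM in L1, 11.23, 11.7 and 9.64 FPKM in L2, and 0.34, 0.99 and 0.78 FPKM in M7. The fitted log2 change was -2.81 ± 0.42 in M7 against L2 (adjusted p = 5.29e-04) and -2.43 ± 0.42 in M7 against L1 (adjusted p = 0.00168). DN31078_c0_g1 averaged 9.16 ± 2.87 FPKM in L1, 9.09 ± 0.996 FPKM in L2 and 0.513 ± 0.208 FPKM in M7 (SD, n = 3 each). For both, L1 replicate 3 was the lowest L1 library. MYB59-like (DN2040_c0_g1) had the highest level of the remaining classes, with 21.69, 16.89 and 23.37 FPKM in L1, 27.82, 25.66 and 27.52 FPKM in L2, and 0.23, 4.24 and 3.97 FPKM in M7.

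**Figure D5:**
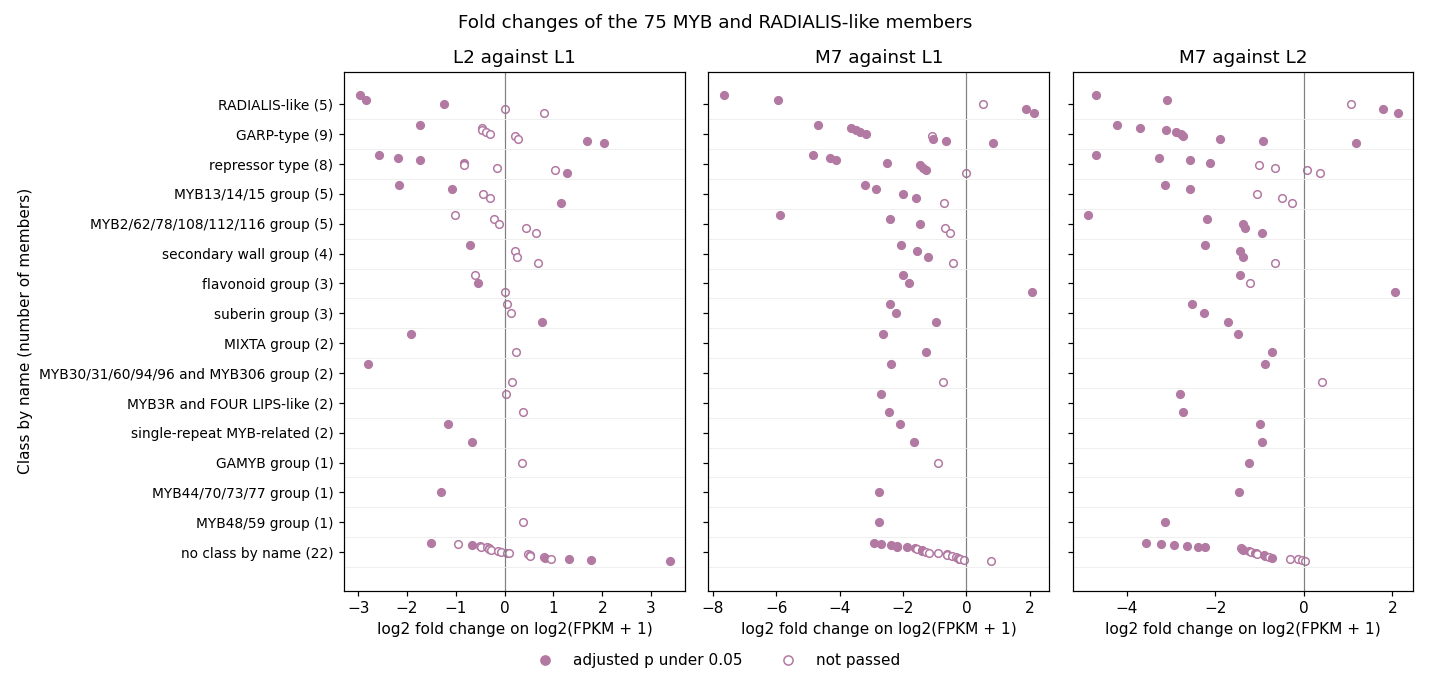
Log2 fold changes on log2(FPKM + 1) of the 75 members in the 3 comparisons, with 1 row per class by name and 1 point per member, filled where the adjusted p was under 0.05. Filled points include those of the 7 members that reached the level filter through 1 stage alone, and points of members listed at 0 throughout a stage lie at fitted values that depend on the pseudocount. Most points of the M7 panels lie left of 0, and the RADIALIS-like, GARP-type and flavonoid rows hold filled points on both sides. In the flavonoid row, the filled points right of 0 are those of MYB11-like alone, which reached the level filter through M7 alone.

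Some abundant members did not pass or passed once. MYB protein 8, partial (DN2826_c0_g1), had the highest mean of the members in L2 and in M7, with 14.5% and 20% of the summed level. It had 123.6, 132.02 and 275.13 FPKM in L1, 147.91, 145.05 and 155.18 FPKM in L2, and 19.69, 88.69 and 93.09 FPKM in M7. M7 lay below both seedling stages in every library, but the log2 fold changes of -1.57 ± 0.58 against L1 (adjusted p = 0.0593) and -1.43 ± 0.58 against L2 (adjusted p = 0.064) missed the threshold. MYBR4 (DN2826_c0_g3), of the same component, had 18.51, 17.55 and 18.69 FPKM in L1, 18.51, 18.3 and 21.36 FPKM in L2, and 15.06, 13.1 and 18.42 FPKM in M7, and the stages overlapped.

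Both CAA-type MYB 1d unigenes also share a component. DN15747_c0_g2 had 43, 47.57 and 41.19 FPKM in L1, 34.13, 33.58 and 33.63 FPKM in L2, and 24.06, 29.79 and 56.96 FPKM in M7, and it passed in no comparison. DN15747_c0_g1 had 25.31, 24.22 and 16.24 FPKM in L1, 31.97, 29.09 and 32.07 FPKM in L2, and 6.34, 9.69 and 21.8 FPKM in M7. M7 replicate 3 was the highest M7 library of both. DN15747_c0_g1 was lower in M7 against L2 (-1.40 ± 0.40, adjusted p = 0.0153), a call lost after median ratio rescaling (adjusted p = 0.129) and after quantile normalization (adjusted p = 0.0789). The 2 unigenes matched as GHMYB10 (DN3530_c1_g1 and DN21001_c0_g1) also passed in no comparison.

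Members of 1 component often took different courses. The 75 members came from 57 components, and 33 of them shared a component with another member. On DN3521, MYB6-like fell at each stage, whereas MYB86 passed in no comparison and MYB2 (DN3521_c0_g2) had 6.14 ± 1.04 FPKM in L1, 8.63 ± 1.6 FPKM in L2 and 4.05 ± 1.32 FPKM in M7 (SD, n = 3 each) and passed in M7 against L2 alone (-0.95 ± 0.27, adjusted p = 0.0144). On DN3530, 308-like fell in M7, whereas DN3530_c1_g1 had 1.82, 10.95 and 11.65 FPKM in M7, against 7, 8.66 and 13.51 FPKM in L1. On DN25865, MYB11-like was found in M7 alone, whereas myb transcription factor 3 (DN25865_c1_g2) was listed at 0 in all M7 libraries and had 1.59, 1.6 and 1.71 FPKM in L1. MYB11-like reached the level filter through M7 alone and DN25865_c1_g2 through L1 alone, so the rule required each to be high in its own stage. Differences between members of 1 component were not tested.

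Other MYB-domain factors, named without MYB in the match, were described by the same fit. Of 12 tested, 7 were lower and 1 was higher in M7 against L1 (58.3% and 8.33%), beside 35.1% and 9.37% of all tested unigenes. In M7 against L2, 5 were lower and 1 was higher (41.7% and 8.33%), beside 52.6% and 7.71%, so the lower share was under that of all. In L2 against L1, 2 were lower and 1 was higher (16.7% and 8.33%), beside 14.8% and 26.1%. The higher one in both M7 comparisons was a DIVARICATA-like unigene (DN1775_c1_g1), a name of the protein that RADIALIS opposes in snapdragon. It had 0.87, 1.6 and 0.85 FPKM in L1, 1.7, 2.14 and 1.71 FPKM in L2, and 7.83, 16.22 and 10.36 FPKM in M7, with 2.53 ± 0.28 in M7 against L1 (adjusted p = 1.55e-04). A second DIVARICATA-like unigene (DN1991_c0_g2) went the other way, with 2.04, 3.07 and 3.27 FPKM in M7 against 11.14, 11.67 and 15.08 FPKM in L1 (-1.85 ± 0.21, adjusted p = 1.84e-04). There were 10 tested GARP factors and response regulators with other names. In M7 against L1, 6 were lower and 1 was higher (60% and 10%), beside 35.1% and 9.37% of all tested unigenes. The higher one was the response regulator ARR5 (DN3625_c0_g1). In M7 against L2, 7 were lower (70%), beside 52.6%, and none was higher. In L2 against L1, 3 were higher (30%), beside 26.1%, and none was lower. R2R3 MYB proteins work with bHLH and WD40 partners, and of 2 such unigenes TRANSPARENT TESTA GLABRA 1 (DN110828_c0_g1) had 163.43, 71.12 and 95.42 FPKM in M7 against 17.48, 16.19 and 13.98 FPKM in L1 (2.64 ± 0.30, adjusted p = 1.57e-04). The other, EGL1-like (DN11359_c0_g1), a bHLH name, had 0.71, 5.61 and 4.92 FPKM in M7 against 19.06, 18.35 and 17.88 FPKM in L2 (-2.26 ± 0.61, adjusted p = 0.0121) and did not pass in M7 against L1 (-1.61 ± 0.61, adjusted p = 0.0631).

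Enzymes of pathways that MYB proteins are known to control in other plants were counted beside the members. Of 33 tested enzymes of phenylpropanoid entry and lignin, 11 were lower and 10 higher in M7 against L1, or 33.3% and 30.3%, beside 35.1% and 9.37% of all tested unigenes. In M7 against L2, 14 were lower and 7 higher, or 42.4% and 21.2%, beside 52.6% and 7.71%. Of 11 flavonoid enzymes, 7 were lower and 2 higher in M7 against L1 (63.6% and 18.2%), and 6 lower and 2 higher in M7 against L2 (54.5% and 18.2%). Of 43 suberin and Casparian strip unigenes, 25 were lower and 6 higher in M7 against L1 (58.1% and 14%), and 30 lower and 6 higher in M7 against L2 (69.8% and 14%). In L2 against L1 the lower and higher counts were 7 and 4 for phenylpropanoid entry and lignin, 2 and 2 for flavonoids and 8 and 7 for suberin, beside 14.8% and 26.1% of all tested unigenes. No relation between members and these enzymes was tested.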

How the data were processed

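The authors sequenced 9 root libraries. Reads were checked with FastQC and trimmed with fastx_toolkit, Trinity built the assembly, and RSEM quantified its unigenes. The values deposited by the authors are called FPKM here, although their methods name both TPM and FPKM, and no counts were used. Only the 65535 unigenes of the table were analysed. The paper reports more unigenes expressed in the roots than this, so the table may hold only part of the assembly.

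Unigenes that reached 1 FPKM in 3 or more libraries were fitted as log2(FPKM + 1) with limma 3.58.1 in R 4.3.3 (1 mean per stage, eBayes with a trend, no replicate block), and p-values were adjusted over all 34925. The thresholds of a DEG follow the study's methods, with its FPKM maximum read as the highest stage mean. Nothing says which plants the replicates came from, so p-values measure the spread between these libraries only. Whether replicate numbers pair the libraries is not stated, and libraries with the same number showed no strong common signal.

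Full values are given for every RADIALIS-like member, every member DEG, every member over 30 FPKM that was no DEG, and the 5 largest rises and falls per comparison that passed without overlap. Members named beyond this rule were chosen after their values were seen. Members, classes and lists, found by words in match names, were chosen with earlier results of these data known. Alternatives were other pseudocounts, filters, scalings and fits and each library left out. Sequences were not used here.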

Additional observations from a re-analysis of the deposited data

How the results depend on the processing

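Members that reached the level filter through 1 stage alone were left out here. Of the other members named by the rule, 20 passed in some comparison, with 44 passed results. Of these results, 33 kept their direction and call under every alternative. Direction was kept in 871 of 872 alternative values, the exception being the EFM unigene DN26656_c0_g3 in M7 against L1, at 0.07 under quantile normalization. This tally is no measure of robustness, because the results were chosen for having passed. Other filters, no variance trend, the block, a fit of only the stages compared and leaving out a library of the third stage also cannot change a fold change. Members higher in L2 against L1 numbered 4 with a pseudocount of 0.1, and member DEGs there 3. With a pseudocount of 5, members higher in M7 against L1 numbered 2 and DEGs in M7 against L2 numbered 4. A filter at a mean of 5 FPKM tested only 35 members and left 3 higher and 7 lower in L2 against L1, 1 higher and 26 lower in M7 against L1, and 1 higher and 24 lower in M7 against L2. Quantile normalization gave 13 higher, 28 lower and 5 DEGs in M7 against L2, and 6 higher, 34 lower and 8 DEGs in M7 against L1. Without the members that reached the level filter through 1 stage alone, a step chosen after the data were seen, 2 members were higher in each M7 comparison. Fitting only the stages compared left 1 member higher in M7 against L1. Where no cause is evident from the setting, the cause was not tested. Leaving out 1 library gave 6 to 11 higher, 16 to 19 lower and 4 to 6 DEGs in L2 against L1, 2 to 4, 44 to 53 and 9 to 10 in M7 against L1, and 4 to 5, 46 to 55 and 7 to 8 in M7 against L2. The lowest count of members higher in M7 against L1, 2, came without L1 replicate 2, L1 replicate 3 or M7 replicate 3. With the highest single library over 30 FPKM in place of the stage mean there were 13 DEGs in M7 against L1, with 11 in M7 against L2.

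With the replicate number as a block, 9 members were higher, 17 lower and 6 DEGs in L2 against L1, 3, 48 and 10 in M7 against L1, and 4, 51 and 8 in M7 against L2. Under the block MYBC1-like (DN3408_c0_g1) had an adjusted p of 0.0529 in M7 against L1. Deviations of libraries with the same number correlated at -0.053 to 0.053 across unigenes, beside -0.076 to 0.079 for libraries with different numbers. Same-numbered libraries thus showed no strong common signal, but these values cannot exclude that they share an origin. Values carry no counts, so what depth allows at low FPKM cannot be given.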

Other observations

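Matches that the rule leaves out were read as values only. Another RADIALIS-like 1 unigene of component DN20092, DN20092_c0_g3, missed the level filter by 1 library, with 0 in all L1 libraries, 0, 0.21 and 0.4 FPKM in L2, and 0, 8.03 and 26.7 FPKM in M7. Of the 12 matches under the filter, 5 missed it by 1 library. Of the 14 matches to the dropped species, 5 passed the filter, and 4 of these were under 0.1 FPKM in all M7 libraries. The exception was an EFM unigene matched to Quercus suber (DN19657_c0_g1), which had 15.17, 13.72 and 15.4 FPKM in L1, 4.82, 4.77 and 4.95 FPKM in L2, and 1.17, 2.54 and 1.17 FPKM in M7. Unlike the EFM members, this unigene had its highest values in L1.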
